A study of Mus musculus with 4 samples.

Results

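The genes described here are the T cell growth factor Il2, the 3 chains of its receptor (Il2ra, Il2rb and Il2rg), and 4 inducible feedback inhibitors of cytokine signalling, Cish, Socs1, Socs2 and Socs3. They were taken by symbol, 8 of the 32285 genes in the count files, with earlier results of these data known. They were measured in T cells sorted as CD3+CD4+ from mouse spleen (C57BL6/J strain), stimulated for 6 hours through CD3 and CD28, and profiled as single cells by droplet RNA sequencing. Of the 4 libraries, 1 from females and 1 from males carried the label Irf5-/- (called labelled knockout below), and 1 of each sex the label WT (labelled wild type). All 4 were stimulated, so a level at rest was not analysed here. The labels give neither the number of mice in a library nor a batch, so p-values may measure technical spread only. The study compared the genotypes. The questions followed here are which cells made Il2, which carried its receptor, and where the inhibitors were found.

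IL-2 is secreted by activated T cells and binds a receptor whose beta and gamma chains carry the signal, while the alpha chain (CD25, from Il2ra) raises its affinity. The signal passes through the kinases JAK1 and JAK3 to the transcription factor STAT5, which induces CIS and SOCS proteins (from Cish and the Socs genes) that dampen the same receptor. Regulatory T cells, which carry the transcription factor Foxp3, hold much CD25 and are known as consumers rather than makers of IL-2. Il2 and Il2ra are both switched on by signals from the T cell receptor, with NFAT among the factors known to act on them.

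The bases just before the starts of Il2 and Il2ra are shown because the levels of both genes followed the response to the T cell receptor described further down. They come from RefSeq on GRCm38.p6, written 5′ to 3′ on the strand of the gene. Capitals mark matches to GGAAA, the core of NFAT sites, on either strand. The Il2 stretch is chr3:37125960-37126204 (minus strand), without the bases inside the annotated gene, and the Il2ra stretch is chr2:11642542-11642791 (plus strand).
Il2: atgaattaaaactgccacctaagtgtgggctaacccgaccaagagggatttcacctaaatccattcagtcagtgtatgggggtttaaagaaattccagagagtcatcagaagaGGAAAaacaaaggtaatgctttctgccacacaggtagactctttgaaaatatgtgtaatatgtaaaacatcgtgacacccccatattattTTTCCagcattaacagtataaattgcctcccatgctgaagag
Il2ra: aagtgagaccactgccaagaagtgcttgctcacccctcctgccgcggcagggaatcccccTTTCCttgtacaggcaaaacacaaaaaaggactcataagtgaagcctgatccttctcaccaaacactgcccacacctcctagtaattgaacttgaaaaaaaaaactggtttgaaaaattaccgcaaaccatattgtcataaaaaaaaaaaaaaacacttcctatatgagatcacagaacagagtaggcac
Of the 8 genes, 6 were in the promoter table. The 250 bases before their starts were searched on both strands for GGAAA, for the STAT core TTCNNNGAA, for the AP-1 core TGANTCA and for TGACG, a core of cAMP response elements, and no matches overlapped. Il2 held GGAAA at 2 places, 137 to 133 and 47 to 43 bases before the start, where 21.4% of all 32851 promoters held at least 2 matches. Il2ra, Il2rg, Socs1 and Socs3 held it 1 time each, where 55.6% of promoters held it. The STAT core was found in Socs3, as TTCTTAGAA at 154 to 146 bases before the start, where 7.02% of promoters held one. TGACG was found in Cish (17.8% of promoters) and the AP-1 core in none of the 6 (6.75% of promoters). A match is a description of the letters and not of a site in use.

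Cells with at least 2000 UMIs (unique molecular identifiers, which count transcripts), at least 500 genes and at most 10% mitochondrial UMIs were kept. Values of the 4 libraries are given throughout in the order female labelled knockout, female labelled wild type, male labelled knockout, male labelled wild type. Kept cells numbered 6178, 1814, 6543 and 4565, with medians of 5105, 8416, 6741 and 9661 UMIs per cell. Fewest came from the female library labelled wild type, whose kept cells held 55.6% of its UMIs, against 83.2% to 89.2% in the other 3. Any pair of libraries shared 2 to 14 barcodes of kept cells, at most 0.551% of the smaller library. Between 87.1% and 90.7% of kept cells passed a gate for T cells of the CD4 kind, although only 21.6% to 36.2% of these carried a Cd4 UMI. The 5 red cell markers, most of them haemoglobin genes, summed over all kept cells to 1373 UMIs per 1000000 UMIs of the cells summed (CPM below) in the female library labelled wild type and 1.49 to 34.1 in the others. Irf5 went against the labels, at 8.57 and 9.07 CPM in the libraries labelled knockout and 0.936 and 1.18 in those labelled wild type. No label says which part of Irf5 is deleted, and 3′ tags outside a deleted part check nothing, so genotypes are named by their labels only. Whether the labels were exchanged was not tested. If they were, every difference between genotypes given here would have the opposite sign.

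Summed over all kept cells, the ligand, Il2ra and Il2rg differed little between libraries, Il2rb and Socs2 were higher in both libraries labelled knockout, and 1 library was low in the other inhibitors. Il2 was at 106, 126, 108 and 106 CPM. The female library labelled wild type was the highest, and the other 3 were close together. Il2ra was at 362, 366, 335 and 313 CPM, with both female libraries above both male ones. Il2rg, a chain shared with the receptors for several other cytokines, was at 251, 244, 240.5 and 261 CPM, and the genotypes overlapped. Il2rb was at 47.4, 36.5, 40.7 and 29.4 CPM, with both libraries labelled knockout above both labelled wild type.

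Cish, whose product CIS binds the activated receptor, was at 216, 226, 208 and 129 CPM. Socs1, whose product inhibits JAK kinases, was at 268, 274, 241 and 154 CPM. Socs3, whose product inhibits signals through receptors of the IL-6 family, was at 15.6, 16.0, 12.9 and 9.23 CPM. All 3 had their lowest level in the male library labelled wild type. Socs2, known as an inhibitor of growth hormone signals, was at 9.82, 3.49, 8.14 and 3.66 CPM, with both libraries labelled knockout above both labelled wild type. In such sums, fewer cells of a type and less RNA per cell cannot be told apart. Free RNA differed too: in droplets with fewer than 200 UMIs, Il2rb stood at 126, 88.1, 89.0 and 55.7 CPM and Socs2 at 20.9, 8.72, 13.7 and 7.44, above the level in cells in all 4 libraries. The part of free RNA in the differences was not tested.

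**Figure D1:**
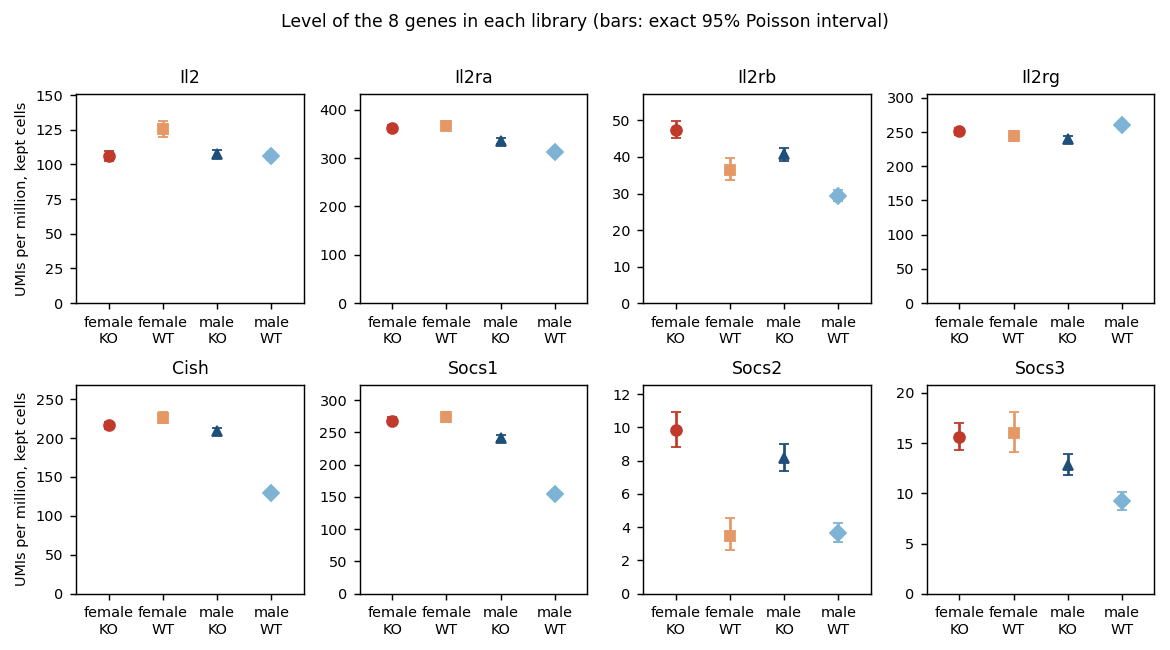
Level of each of the 8 genes in each library, in CPM of kept cells (y axis), with exact 95% Poisson intervals for counting error as bars; KO and WT are the labels. Cish, Socs1 and Socs3 are lowest in the male library labelled wild type, and Socs2 is at 9.82 and 8.14 in the libraries labelled knockout against 3.49 and 3.66 in those labelled wild type.

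Between the labelled genotypes, with sex in the model, 2 of the 8 genes passed an adjusted p of 0.05 in edgeR's quasi-likelihood test (Benjamini-Hochberg over all genes tested), where 1.21% of the 12855 genes tested were called (0.809% higher and 0.397% lower). Socs2 was higher in the libraries labelled knockout, at a log2 fold change and SE of 1.22 ± 0.15 (adjusted p = 5.77e-04). Il2rb was higher by 0.36 ± 0.08 (adjusted p = 0.0466). The other 6 did not pass, at log2 fold changes from -0.18 (Il2, adjusted p = 0.697) to 0.25 (Cish, adjusted p = 0.697). The median over the 8 genes was 0.21, beside 0.00 over all genes tested.

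The share of Foxp3 cells was also higher in both libraries labelled knockout. Foxp3 UMIs were found in 4.76% and 5.52% of cells in the libraries labelled knockout and in 2.32% and 3.61% in those labelled wild type. With 2 libraries against 2, the two-sided exact permutation p for that share was 0.33, the smallest it can be. Its part in the Il2rb and Socs2 differences was not tested, and within each genotype the male library had the larger share. In cells with no UMI of Foxp3, Ikzf2 or Gpr83 (the last 2 also mark regulatory cells), an alternative chosen after seeing the data, Il2rb differed by 0.04 (adjusted p = 0.999) and Socs2 by 1.28 (adjusted p = 0.280). Those cells held only 62, 10, 46 and 21 Socs2 UMIs, and in each library 5 cells carried between 39.1% and 71.4% of them. Socs2 also lost its call without the male library labelled wild type (1.32, adjusted p = 0.0832), without sex in the model (1.25, adjusted p = 0.104), without the filter on low counts (1.22, adjusted p = 0.0586) and after every cell was thinned to 2000 UMIs (0.65, adjusted p = 0.119). Every fit between genotypes with 1 library left out also had no sex in the model, so the 2 changes cannot be told apart. Il2rb lost its call whichever of the 4 libraries was left out, at log2 fold changes from 0.23 to 0.49. It also lost it without sex in the model (0.36, adjusted p = 0.859), in DESeq2 (0.36, adjusted p = 1.00), without the filter on low counts (0.36, adjusted p = 0.319), after thinning (0.32, adjusted p = 0.136), from 3000 UMIs (0.34, adjusted p = 0.133) and in cells without a Foxp3 UMI (0.24, adjusted p = 0.366). Of 13 alternatives, Il2rb passed in 2, the CD4 T gate and without the cells of the most UMIs, and Socs2 in 8. Without the female library labelled wild type, again with no sex in the model, Cish and Socs1 were both at 0.63. The male library was then the only one labelled wild type. Il2 passed, lower in the libraries labelled knockout, when the cells with the most UMIs were left out (-0.37, adjusted p = 0.00548). That step left out 305, 26, 342 and 167 cells, more in the libraries labelled knockout. Cells with at least 3 Il2 UMIs fell from 274, 98, 305 and 281 to 229, 95, 253 and 254. The part of this unequal removal in the Il2 difference was not tested.

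Between the sexes 0 of the 8 genes passed in the same edgeR fit, where 1.31% of the 12855 genes were called (0.109% higher and 1.2% lower in males). The lowest adjusted p values were those of Socs3 (male over female -0.49 ± 0.12, adjusted p = 0.0728), Socs1 (-0.46 ± 0.12, adjusted p = 0.110) and Cish (-0.40 ± 0.13, adjusted p = 0.278). At an unadjusted p under 0.05, 4 of the 8 passed in edgeR (Socs3, Socs1, Cish and Il2rb), as did 1008 of all 12855 genes, and 0 of the 8 passed after adjustment in DESeq2. In cells of the CD4 T gate the same 3 inhibitors passed, at -0.49 (Socs3, adjusted p = 0.00556), -0.47 (Socs1, adjusted p = 2.70e-04) and -0.40 (Cish, adjusted p = 0.00527). All 3 also passed with the cells of the most UMIs left out, and Socs1 and Cish passed after thinning. Fits between the sexes with 1 library left out also had no genotype in the model. Without the male library labelled knockout, Socs1 was at -0.74 and Cish at -0.70, with the library labelled wild type as the only male one. Without the male library labelled wild type the differences were smaller, at -0.31 (Socs3), -0.18 (Socs1) and -0.10 (Cish).

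Il2 was made by few cells, and these carried nearly all of it. At least 1 Il2 UMI was found in 8.27%, 10.0%, 9.03% and 12.5% of kept cells. At least 3, which defines Il2-producing cells below, were found in 274, 98, 305 and 281 cells. As shares of kept cells with exact 95% binomial intervals, these were 4.44% (3.94 to 4.98), 5.40% (4.41 to 6.54), 4.66% (4.16 to 5.20) and 6.16% (5.48 to 6.89). Both libraries labelled wild type lay above both labelled knockout, at an exact permutation p of 0.33, the smallest that 2 libraries a genotype allow. The cut is a fixed number of UMIs, and the libraries labelled wild type were the deeper ones. The mean difference, labelled knockout minus labelled wild type, was -1.23 percentage points. With every cell thinned to 2000 UMIs and a cut of 1 Il2 UMI it was -0.796, at shares of 5.20%, 5.73%, 5.17% and 6.22%. Intervals here and below cover counting error only.

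Producing cells held 91.7%, 95.1%, 93.3% and 93.0% of all Il2 UMIs. The highest 1% of cells held 56.4%, 55.4%, 59.8% and 50.1% of them, and the highest single cells held 152, 175, 577 and 198 Il2 UMIs. Cells just outside the cut, with 2 Il2 UMIs, numbered 64, 14, 59 and 54, and cells just inside it, with 3, numbered 39, 13, 43 and 39. None of 74 cells that lacked any UMI of the T cell receptor or Cd4, a group chosen after seeing the data, carried an Il2 UMI, which allows a share of up to 4.05%. Such limits for a count of 0 are set at 3 counts of the total, and the exact 95% binomial bound, given beside them, was 4.86% here. Their median depth was 4998 UMIs, near that of the shallowest library. Of the same 74 cells, 14.9% carried a Foxp3 UMI, and after thinning to 2000 UMIs 12.2% did, against 2.80% in the CD4 T gate. Droplets under 200 UMIs held Foxp3 at 63.8, 19.9, 44.2 and 28.2 CPM, above its 23.2, 7.55, 24.2 and 12.5 in kept cells. Cells called Foxp3 cells below rest on 1 such UMI, and the part of free Foxp3 RNA in that class was not tested.

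**Figure D2:**
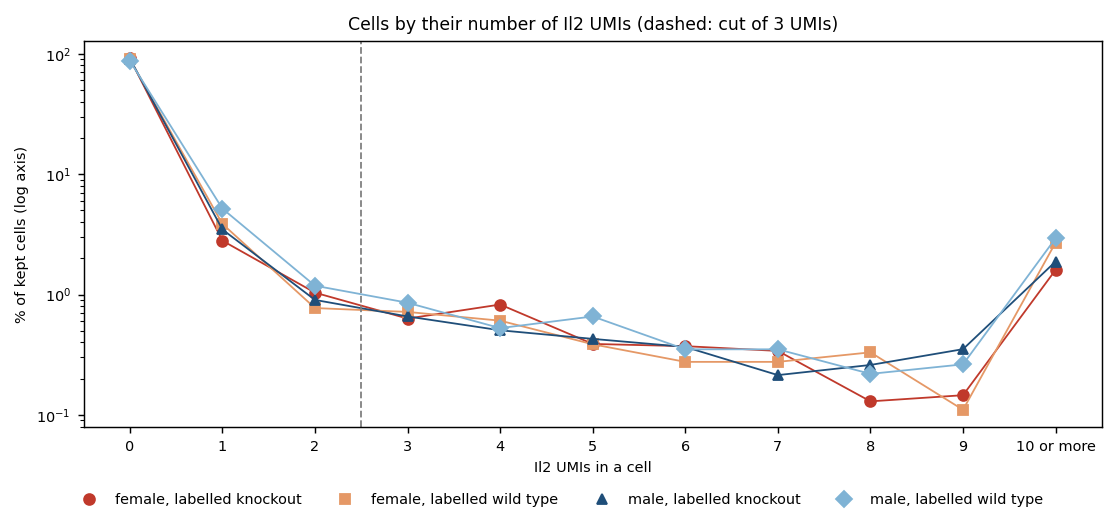
Share of kept cells (y axis, % on a log axis) by their number of Il2 UMIs (x axis, with 10 or more as the last class), 1 line per library; the dashed line is the cut of 3 UMIs. The last class held 99, 49, 123 and 134 cells, more than any single number from 3 to 9 in each library.

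Il2-producing cells were a smaller share of Foxp3 cells than of other cells. Of cells with at least 1 Foxp3 UMI, 3 of 294, 1 of 42, 6 of 361 and 3 of 165 were producing cells, that is 1.02%, 2.38%, 1.66% and 1.82%. Of cells without one, 4.61%, 5.47%, 4.84% and 6.32% were. The difference in percentage points was -3.59, -3.09, -3.17 and -4.50, lower in 4 of 4 libraries (two-sided exact sign-flip permutation p = 0.13, the smallest that 4 libraries allow). Foxp3 cells were fewest in the female library labelled wild type, and its interval ran from 0.0603% to 12.6%.

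The order was the same at equal depth. With every cell thinned to 2000 UMIs and a cut of 1 Il2 UMI, 0.962%, 0%, 0.862% and 0% of Foxp3 cells produced Il2, against 5.34%, 5.79%, 5.32% and 6.35% of the others. The values of 0 came from 19 and 94 cells, which allow shares of up to 15.8% and 3.19% (exact bounds 17.6% and 3.85%). The 13 cells with both genes had medians of 19590, 14416, 13583 and 17216 UMIs in the 4 libraries, against 4475, 7033, 5726 and 7501 in all Foxp3 cells. Doublets were not removed, and their part in these 13 cells was not tested. These 13 cells held 23, 4, 101 and 48 of the 29, 5, 115 and 56 Il2 UMIs of Foxp3 cells. With the cells of the most UMIs left out, producing cells were 0.377%, 2.44%, 0.898% and 1.27% of Foxp3 cells and 4.07%, 5.38%, 4.26% and 5.94% of the others.

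Il2-producing cells were not scarce among cells rich in the receptor. Among cells without Foxp3, the tenth of each library with the largest share of Il2ra UMIs is called Il2ra-high below. It is a range of a level and not a cell type, and 108 to 275 cells of a library lay within 10% of the cut. Producing cells made up 5.94%, 7.30%, 9.53% and 10.2% of Il2ra-high cells and 4.46%, 5.27%, 4.31% and 5.88% of the rest. The share was higher in 4 of 4 libraries, by 1.49, 2.03, 5.22 and 4.34 percentage points (exact sign-flip permutation p = 0.13, the smallest possible). Median depth was 5063 to 9703 UMIs in Il2ra-high cells and 5137 to 9723 in the rest. Over all kept cells thinned to 2000 UMIs, when ties at the cut put 906, 297, 805 and 577 cells in the Il2ra-high class, the difference was 2.29, 3.55, 2.58 and 4.05 points. Before thinning, cells in both groups numbered 35, 13, 59 and 45.

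Within the cells that responded most to the T cell receptor (the highest band of the response score defined below), the size depended on how Il2ra-high was drawn. With the Il2ra cut of the whole library kept, Il2ra-high cells numbered 319, 93, 345 and 257 of the band, and producing cells made up 6.58%, 10.8%, 11.3% and 11.7% of them. In the rest of the band they made up 6.66%, 8.33%, 6.21% and 7.57%. The difference was -0.0784, 2.42, 5.09 and 4.10 percentage points, higher in 3 of 4 libraries (exact sign-flip permutation p = 0.25). With a new cut at the upper 10% of the band itself, which left 161, 46, 177 and 120 cells, it was -1.17, -2.57, 2.66 and 7.28 points, lower in both female and higher in both male libraries (exact sign-flip permutation p = 0.625). Both versions were chosen after seeing the data. In that band producing cells were still a smaller share of Foxp3 cells in 4 of 4 libraries, at 2.33%, 0%, 1.39% and 2.50% against 6.65%, 8.83%, 7.21% and 8.45%. It held 43, 7, 72 and 40 Foxp3 cells, and the 0 of 7 in the female library labelled wild type allows a share of up to 42.9% (exact bound 41.0%).

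**Figure D3:**
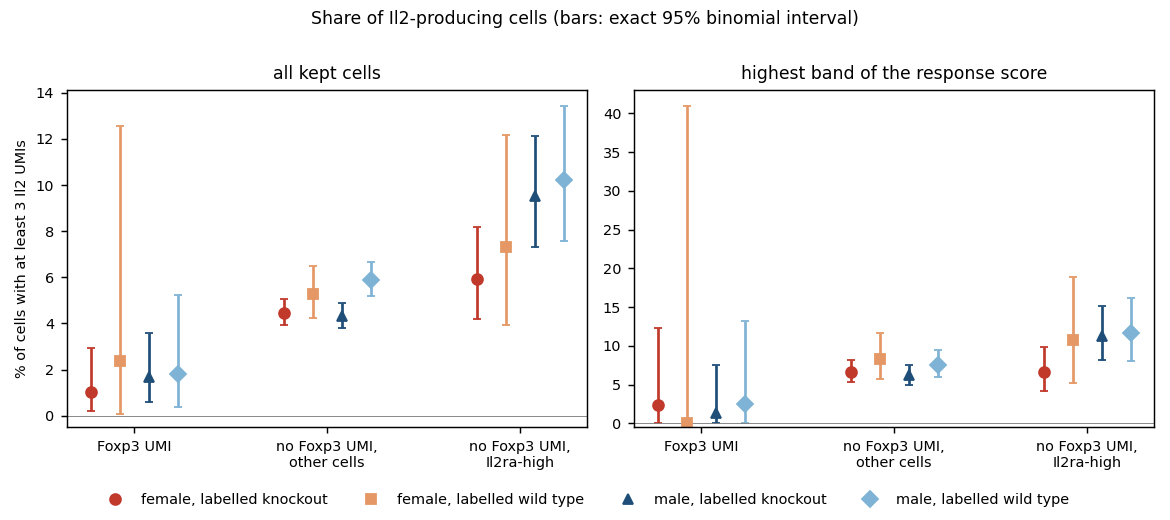
Share of cells with at least 3 Il2 UMIs (y axis, %) among cells with a Foxp3 UMI, among Foxp3-negative cells that were not Il2ra-high, and among Il2ra-high cells, for all kept cells (left) and for the highest band of the response score (right, on its own scale); points are libraries and bars exact 95% binomial intervals. On the left each library is lowest in Foxp3 cells (1.02% to 2.38%) and highest in Il2ra-high cells (5.94% to 10.2%), and on the right, with the Il2ra cut of the whole library, the female library labelled knockout has near equal shares in Il2ra-high and other cells (6.58% and 6.66%).

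Compared with cells without Foxp3, Foxp3 cells were poor in the ligand and rich in 2 receptor chains and in all 4 inhibitors. In edgeR's quasi-likelihood test on sums per library and class, with the library as block, 7 of the 8 genes were called (6 higher and 1 lower), where 35% of the 11372 genes tested were called (17.4% higher and 17.6% lower). The median over the 8 was 0.94, beside 0.00 over all genes tested. Il2 stood at 17.8, 15.9, 47.0 and 38.7 CPM in Foxp3 cells and at 111, 128, 111 and 109 in the others. No library of one class reached the other, and the log2 fold change was -1.89 ± 0.15 (SE, 4 libraries, adjusted p = 1.17e-09). Here and below, the share of all genes without overlap between classes or bands was not counted. A lack of overlap therefore only describes the levels and does not set these genes apart from others. Most of the Il2 left in Foxp3 cells lay in the 13 producing cells counted above, and the size of this fold depended on the handling of cells. It was -2.40 without the cells of the most UMIs, -2.57 with at least 2 Foxp3 UMIs and -4.80 after thinning, and it passed in each.

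Il2ra stood at 1231, 1252, 1075 and 991 CPM in Foxp3 cells and at 318, 349, 295 and 291 in the others (1.68 ± 0.05, adjusted p = 8.40e-17). Il2rb stood at 276, 303, 248 and 242 CPM against 35.9, 31.2, 29.5 and 22.6 (2.98 ± 0.08, adjusted p = 9.11e-18). Both chains were higher in Foxp3 cells in 4 of 4 libraries with no overlap. For Il2ra the log2 ratio of the classes by CPM was 1.95, 1.84, 1.87 and 1.77 (exact sign-flip permutation p = 0.13, the smallest possible). Il2rg was at 289 ± 19.7 against 248 ± 8.98 CPM (SD, n = 4) and did not pass (0.03 ± 0.06, adjusted p = 0.695). Fold changes are after TMM scaling, which levels in CPM are not, so the levels of such a gene can differ by more than its fold change. Of Foxp3 cells, 58.4% to 64.3% lay above the Il2ra cut that defined Il2ra-high cells.

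Among the inhibitors Socs2 had the largest log2 fold change. It stood at 91.5, 112, 87.9 and 71.8 CPM in Foxp3 cells and at 5.74, 1.34, 3.83 and 1.47 in the others (4.62 ± 0.22, adjusted p = 3.58e-13). After thinning to 2000 UMIs, 18.4% of Foxp3 cells carried a Socs2 UMI against 0.452% of the others (means of 4 libraries). No library of one class reached the other. Cish, at 435, 459, 456 and 369 against 205, 222, 195 and 121 CPM, was higher by 1.08 ± 0.07 (adjusted p = 6.46e-11). Socs3 was at 22.7, 41.4, 21.7 and 24.9 against 15.3, 15.5, 12.4 and 8.73 (0.80 ± 0.17, adjusted p = 5.64e-04). Socs1 was at 356, 481, 358 and 339 against 264, 269, 235 and 148 (0.57 ± 0.08, adjusted p = 9.33e-06). Each of these 3 was also higher in 4 of 4 libraries with no overlap between the classes. Within the highest band of the response score Socs1 no longer passed (0.25, adjusted p = 0.225), while Socs3 was higher by 2.15 (adjusted p = 0.00378). The 8 markers of regulatory cells summed to 2959 to 3971 CPM in Foxp3 cells, and to 292 to 408 in the others. Foxp3, which defined the classes, is 1 of the 8 and gave 386 to 488 CPM of the first sums and 0 of the second, and the other 7 were found in both classes.

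Il2-producing cells, compared with other cells without Foxp3, were low in 3 of the 4 inhibitors and higher in Il2ra. Il2 defined them and was not tested. Of the remaining 7 genes 4 were called (1 higher and 3 lower), where 43.7% of the 10842 genes tested were called (21% higher and 22.7% lower). The median over the 7 was -0.05, beside -0.03 over all genes tested. Il2ra was at 408, 488, 417 and 394 CPM in producing cells and 312, 338, 286 and 282 in the rest. The classes did not overlap (0.52 ± 0.04, adjusted p = 9.43e-10). Il2rb, at 32.6 ± 8.21 against 29.6 ± 5.57 CPM (SD, n = 4), did not pass (adjusted p = 0.144). Nor did Il2rg, at 235 ± 15.7 against 249 ± 8.87 (adjusted p = 0.436). Producing cells were deeper, with medians of 7240 to 13001 UMIs against 5001 to 9445.

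Socs1 was at 113, 107, 104 and 88.3 CPM in producing cells and at 275, 282, 245 and 154 in the rest. It was lower in 4 of 4 libraries with no overlap (-1.11 ± 0.07, adjusted p = 4.01e-11). Socs3 gave 13 UMIs in the 945 producing cells and 1681 in the rest. The ratio per UMI sequenced was 0.0966 (exact 95% interval 0.0513 to 0.166), and the edgeR fit gave -3.31 ± 0.31 (adjusted p = 2.02e-08). Socs2 gave 4 UMIs in producing cells and 443 in the rest. The ratio was 0.113 (exact 95% interval 0.0306 to 0.291), and the edgeR fit gave -3.03 ± 0.57 (adjusted p = 1.67e-04). Here and below, intervals of such ratios pool the libraries and take UMIs as independent, so they may be too narrow. In each library 5 cells held 30.5% to 52.4% of the Socs2 UMIs of cells without Foxp3. By library, the 4 Socs2 UMIs were split as 0, 0, 3 and 1 and the 13 Socs3 UMIs as 4, 0, 8 and 1, so both results rest on few molecules. Cish was at 180.4 ± 36.0 against 186 ± 45.4 CPM and did not pass (0.00 ± 0.06, adjusted p = 0.980). Within the highest band of the response score Cish was lower in producing cells (-0.44, adjusted p = 9.12e-05). In that band Il2rb (0.62, adjusted p = 0.00805) and Il2rg (-0.23, adjusted p = 0.00712) passed too, Socs1 was at -1.15, and Il2ra passed at a smaller difference (0.23, adjusted p = 0.00224). The fitted difference of Socs3, -3.31 over all kept cells, was -2.67 in the band, -1.67 after thinning (with a cut of 1 Il2 UMI) and -5.10 without the cells of the most UMIs, and it passed in each. In cells with no UMI of Foxp3, Ikzf2 or Gpr83, Il2rb also passed (0.35, adjusted p = 0.0215), while after thinning its direction turned (-0.28, adjusted p = 0.271).

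Among cells without Foxp3, Socs1 was lower where a cell had Il2 UMIs at all. Cells with no Il2 UMI had Socs1 at 280.5, 289.8, 251 and 157 CPM, and cells with 1 or 2 at 172, 169, 147 and 113. Cells with 3 to 9 had it at 98.9, 92.3, 112 and 72.7, and cells with 10 or more at 134, 120.3, 91.8 and 105. Each library was lower at 1 or 2 UMIs than at 0 and lower again at 3 to 9, while from there to 10 or more 3 of the 4 were higher. Il2ra moved the other way, from 312, 337, 284 and 276 CPM at 0 to 428, 497, 443 and 418 at 10 or more. These bins are a description, since cells of a library share its depth and free RNA.

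Il2ra-high cells differed from the rest in each of the other 7 genes. All 7 were called (6 higher and 1 lower), where 43.7% of the 10930 genes tested were called (22% higher and 21.7% lower), and the median over the 7 was 0.87, beside -0.02 over all genes tested. Il2rb was at 84.2, 67.6, 68.7 and 47.3 CPM against 30.7, 27.4, 25.1 and 19.9 (1.35 ± 0.06, adjusted p = 1.10e-12). Cish was at 340.5, 393, 354 and 253 against 191, 204, 177 and 107 (0.98 ± 0.05, adjusted p = 1.40e-12). Neither gene overlapped between the classes. Il2 was at 186, 125, 209 and 222 against 102, 128, 99.9 and 96.1, higher in 3 of 4 libraries and not in the female one labelled wild type (0.87 ± 0.10, adjusted p = 4.55e-07). Socs2 was at 17.1, 4.05, 20.6 and 4.07 against 4.49, 1.05, 1.97 and 1.18 (2.38 ± 0.27, adjusted p = 4.13e-07), higher within each library. Socs3 was the only one lower, at 8.42, 3.38, 7.53 and 5.66 against 16.0, 16.8, 12.9 and 9.07 (-0.99 ± 0.17, adjusted p = 7.49e-05). Il2rg (0.33 ± 0.04, adjusted p = 3.45e-07) and Socs1 (0.23 ± 0.03, adjusted p = 2.40e-05) were higher by less. Socs1 lost its call without the library block (adjusted p = 0.381), with 20% of cells in place of 10% (adjusted p = 0.169), and with the direction turned after thinning (-0.06, adjusted p = 0.304).

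These differences were mostly smaller among cells of the highest band of the response score. With the Il2ra cut of the library, Il2rb (0.85, adjusted p = 2.19e-05) and Il2 (0.47, adjusted p = 0.00591) still passed there. Cish (0.14, adjusted p = 0.0634), Il2rg (0.02, adjusted p = 0.832), Socs1 (-0.12, adjusted p = 0.105) and Socs3 (-0.35, adjusted p = 0.712) did not, and Socs2 was too low to be tested. With the upper 10% of the band as the class, Il2rb passed (1.00, adjusted p = 9.57e-06), while Il2 (0.32, adjusted p = 0.473), Cish (0.17), Il2rg (0.11), Socs1 (0.08) and Socs3 (-0.05) did not. Markers of other T cells moved with the receptor. The regulatory markers summed to 513 to 827 CPM in Il2ra-high cells (7 of 8 found, Foxp3 at 0 by definition) and 260.5 to 362 in the rest. The 4 markers of innate-like T cells summed to 91.9 to 181, all 4 found, against 30.3 to 48.7, and their part was not tested. In cells with no UMI of Foxp3, Ikzf2 or Gpr83 all 7 genes still passed, from -1.50 (Socs3) to 1.53 (Socs2). With 20% of cells in place of 10%, Socs2 was at 1.48 and Socs3 at -1.65, and after thinning Il2rg was at 0.19, and all 3 passed.

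Cells that made Il2 without being Il2ra-high were then set against Il2ra-high cells that did not make it. All 6 of the genes left to test were lower in producing cells, where 27.2% of the 8898 genes tested were called and 13.8% were called lower. Their median was -1.20, beside 0.00 over all genes tested. Socs1 was at 112, 93.2, 98.5 and 88.3 CPM in producing cells and 313, 335, 293 and 192 in Il2ra-high cells (-1.38 ± 0.08, adjusted p = 5.87e-13). Cish was at 192, 214, 162 and 126 against 349.8, 406, 375 and 259.5 (-0.94 ± 0.06, adjusted p = 5.11e-12). Il2rb was at 37.6, 30.4, 39.7 and 21.5 against 89.3, 71.1, 71.0 and 50.2 (-1.02 ± 0.10, adjusted p = 2.32e-08). In these 3 genes no library of one class reached the other, and here too the share among all genes was not counted. Il2rg differed by -0.39 ± 0.06 (adjusted p = 3.79e-06). Socs2 (4 UMIs against 172) was at a ratio per UMI sequenced of 0.0321 (exact 95% interval 0.00864 to 0.0836) and Socs3 (12 against 90) at 0.184 (exact 95% interval 0.0916 to 0.337). In the highest band of the response score Il2rb no longer passed, either with the upper 10% of the band as Il2ra-high (-0.35, adjusted p = 0.320) or with the cut of the library (-0.05, adjusted p = 0.929), and after thinning Il2rg did not (-0.24, adjusted p = 0.0739). Cish still passed in that band, at -0.61 and -0.57 in the same order.

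**Figure D4:**
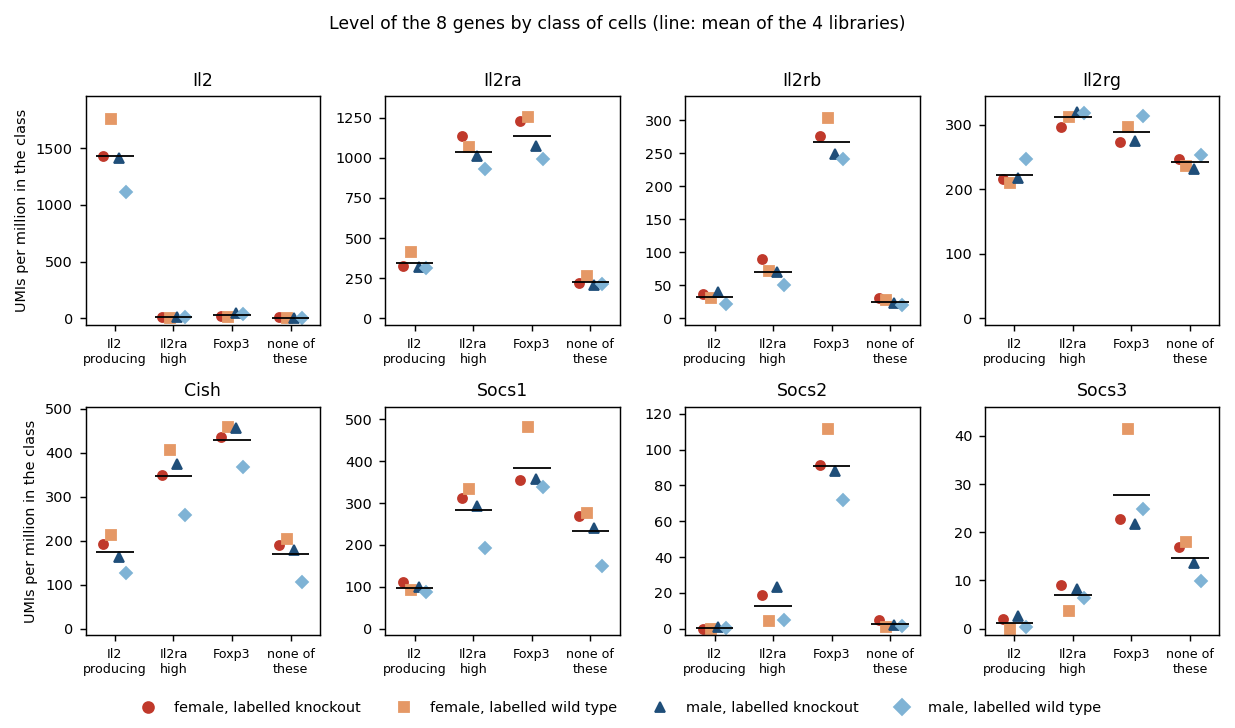
Level of each gene (y axis, CPM of the class) in 4 classes of cells that do not overlap: Il2-producing and not Il2ra-high, Il2ra-high and not producing, Foxp3, and none of these; points are libraries and lines the mean of the 4. Il2 and Il2ra levels are in part set by the classes, Il2rb and Socs2 are highest in Foxp3 cells (means of 267 and 90.7), and Socs1 is lowest in producing cells (mean of 97.9).

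The response to the T cell receptor was followed with a score, the summed UMIs of Nr4a1, Nr4a3, Egr1, Egr2, Egr3, Cd69, Irf4 and Myc in each cell thinned to 2000 UMIs, and the cells of a library were split at its quartiles into 4 bands. All 8 genes differed between the highest and the lowest band, but so did 79.3% of the 11562 genes tested (36.2% higher and 43.2% lower). The median over the 8 was 0.56, beside -0.12 over all genes tested. Il2 was at 30.5, 19.5, 17.0 and 11.5 CPM in the lowest band and 192, 269, 216 and 187 in the highest (3.69 ± 0.15, adjusted p = 6.21e-11). Il2ra went from 201, 136, 174 and 136 to 493, 534, 463 and 464 (1.81 ± 0.09, adjusted p = 3.43e-10). Cish went from 134, 95.8, 120.5 and 59.7 to 366, 422, 346 and 235 (1.96 ± 0.09, adjusted p = 3.01e-10). In these 3 genes the lowest bands of all libraries lay below the highest bands of all libraries. Il2rg rose by less, from 230.0 ± 8.26 to 342 ± 20.9 CPM (SD, n = 4; 0.79 ± 0.05, adjusted p = 5.20e-09), with 203 ± 6.06 in the second band. With the cells of a library split once, at the median of the score, the differences were 2.14 (Il2), 1.02 (Il2ra), 1.27 (Cish) and 0.17 (Socs1), and all 4 passed.

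Il2rb, Socs2 and Socs3 went the other way. Il2rb was at 78.1, 49.6, 67.9 and 42.4 CPM in the lowest band and 27.3, 29.5, 25.5 and 22.7 in the highest (-0.99 ± 0.11, adjusted p = 1.45e-06). Socs2 went from 21.8, 5.81, 17.4 and 10.3 to 3.29, 1.30, 1.68 and 0.494 (-2.97 ± 0.22, adjusted p = 2.68e-08). Socs3 went from 47.1, 53.1, 37.5 and 31.5 to 4.31, 6.26, 4.05 and 2.22 (-3.17 ± 0.12, adjusted p = 2.08e-11). The bands did not overlap in any of these 3, and for Socs3 the second band was already at 6.84 ± 2.54 CPM (SD, n = 4). Markers of other cells were also higher in the lowest band. The 6 NK markers summed to 7.66 to 40.6 CPM there against 0 to 1.30 in the highest, where none to 3 were found, the 3 gamma-delta markers to 11.6 to 35.6 against 1.81 to 6.52, and the 4 B cell markers to 2.61 to 18.96 against 0.261 to 1.02. Myeloid markers (6) summed to 1.89 to 32.5 against 1.57 to 2.72, and red cell markers (5) to 4.59 to 5736 against 0.382 to 14.9. The 9 cells of the NK gate, found in both female libraries, held Il2rb at 1293 and 820 CPM. The CD4 T gate reduced such signals without removing them. Over all its cells the NK markers summed to 0.768 to 6.37 CPM, against 2.64 to 12.4 in all kept cells, the B cell markers to 0.591 to 1.93 against 0.947 to 5.70, and the red cell markers to at most 108 against 1373. In that gate the differences between bands were -0.99 (Il2rb), -2.59 (Socs2) and -3.17 (Socs3), and all 3 passed. The part of the cells that remained, and of gamma-delta and myeloid cells, was not tested.

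Foxp3 itself was at 34.8 ± 16.9 CPM in the lowest band and 9.16 ± 4.32 in the highest. In the lowest band without Foxp3 cells, Socs3 stood at 47.5, 53.0, 37.9 and 30.8, Il2rb at 57.3, 36.4, 38.4 and 24.6 and Socs2 at 13.9, 2.45, 7.17 and 4.17 CPM. In the highest band without Foxp3 cells, Socs3 stood at 4.19, 5.29, 3.88 and 1.78, Il2rb at 23.5, 28.0, 22.1 and 19.5 and Socs2 at 1.40, 0.265, 0.475 and 0.0848. For Il2rb the bands then overlapped between libraries, while each library was still lower in its highest band, and for Socs2 and Socs3 they did not overlap.

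Socs1 was high at both ends. It was at 377, 358, 341 and 210.5 CPM in the lowest band and 160.5, 149, 135 and 88.8 in the second. It was at 152, 169, 145 and 96.2 in the third and 389, 441, 339 and 229 in the highest. Every library had both outer bands above both inner bands. The difference between highest and lowest was 0.33 ± 0.05 (adjusted p = 7.39e-05), and without the library as block it did not pass (0.34, adjusted p = 0.122), and after thinning it was 0.15 (adjusted p = 0.0121). Median depth was 3556 to 6494 UMIs in the lowest band, 6130 to 11748 in the second, 6237 to 11667 in the third and 4998 to 9402 in the highest. After thinning to 2000 UMIs, cells with a Socs1 UMI were 45.7%, 22.1%, 22.1% and 40.8% from the lowest band to the highest (means of 4 libraries). Both inner bands were thus lower at equal depth as well.

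**Figure D5:**
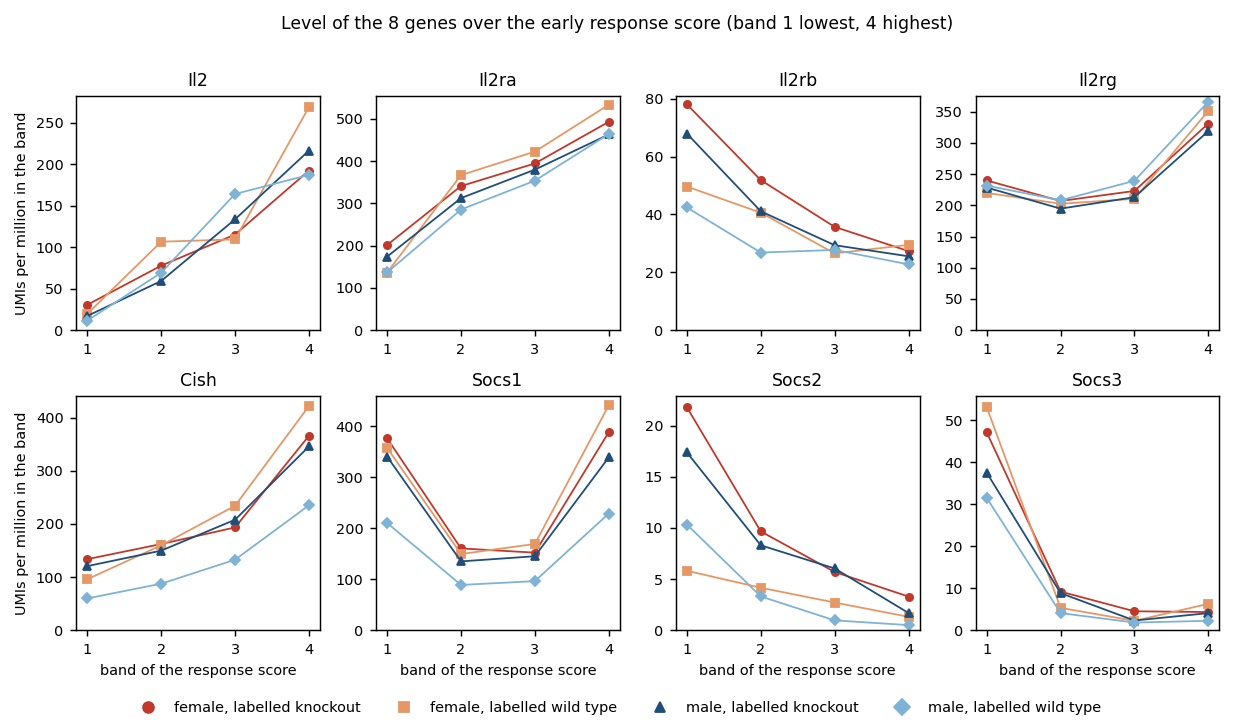
Level of each gene (y axis, CPM of the band) over the 4 bands of the response score (x axis, 1 lowest and 4 highest), 1 line per library. Il2, Il2ra and Cish are higher in each band than in the one before in all 4 libraries, Socs2 is lower in each, and Socs1 is high in the first and last bands (means of 322 and 349.5) and lower between them (133 and 141).

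Around these 8 genes, 69 other genes of the pathway were counted, from lists chosen with earlier results of these data known. In Foxp3 cells 30 of the 64 tested were higher and 12 lower, where 17.4% of all genes were called higher and 17.6% lower. Of 20 genes known to be induced by IL-2 and STAT5, 14 were higher and 2 lower. They were led by Ikzf2 (log2 fold change 4.63 ± 0.07), Ikzf4 (3.36 ± 0.09) and Nfil3 (2.88 ± 0.16), transcription factors of which Ikzf2 is also a marker of regulatory cells. Of 13 signal genes 7 were higher and 1 lower, among them Pik3r1, a subunit of PI3 kinase (1.28 ± 0.10), Stat3 (1.28 ± 0.07) and Stat5a (0.87 ± 0.07). Stat5a, which carries the IL-2 signal itself, stood at 222 ± 53.1 against 106 ± 27.9 CPM (SD, n = 4). Of 22 regulators of Il2, 8 were higher and 7 lower, with Jun higher (2.35 ± 0.11) and Bcl6 (-1.47 ± 0.19) and Nfatc1 (-1.11 ± 0.08) lower.

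In producing cells 17 of 65 pathway genes were higher and 26 lower, where 21% of all genes were called higher and 22.7% lower, so the share that was higher lay near the background. Among the signal genes Pik3r1 (-1.23 ± 0.14) and Stat3 (-0.64 ± 0.06) were lower. In the highest band of the response score Pik3r1 did not pass (0.00539, adjusted p = 0.995). Il7r, the IL-7 receptor chain that pairs with Il2rg, was at 12.8 ± 3.06 against 131 ± 38.3 CPM (-3.44 ± 0.10), and Il4ra was lower too (-1.58 ± 0.09). Il21, a cytokine of the same family, was higher, at 2.49 ± 2.55 against 0.326 ± 0.172 CPM, with an SD as large as its mean. Of the Il2 regulators 6 were higher and 11 lower, with the largest changes in Jun (-1.90 ± 0.15), the RNA-binding Zfp36 (-1.16 ± 0.10) and the repressor Zeb1 (-0.99 ± 0.07). Activators and repressors of Il2 stand in 1 list, so its counts carry no direction of their own.

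In Il2ra-high cells 36 of 65 pathway genes were higher and 14 lower, where 22% of all genes were called higher and 21.7% lower, so the share that was lower lay near the background. Stat5a was higher, at 172 ± 41.8 against 99.1 ± 26.6 CPM (0.78 ± 0.04). Of the IL-2-induced genes 13 were higher and 3 lower, led by granzyme B (Gzmb, 2.59 ± 0.22), Ikzf2 (1.59 ± 0.10) and Lif (1.39 ± 0.09). The NF-kB subunits Rel (0.90 ± 0.03) and Nfkb1 (0.85 ± 0.02) and the AP-1 subunit Junb (0.75 ± 0.03) led the Il2 regulators. In the highest band of the response score Junb did not pass, at 0.13 (adjusted p = 0.135) by the upper 10% of the band and -0.0359 (adjusted p = 0.652) by the Il2ra cut of the library. Il4, a cytokine whose receptor shares Il2rg, was at 47.4 ± 32.2 against 3.75 ± 3.01 CPM (3.63 ± 0.13). Set against Il2ra-high cells, producing cells had 3 of 62 pathway genes higher and 40 lower, where 13.4% of all genes were called higher and 13.8% lower. Among the 40 were Ikzf2 (-1.82 ± 0.16) and Stat3, which fell by 1.00 ± 0.08 on the log2 scale.

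From the lowest to the highest band of the response score 31 of 64 pathway genes were higher and 23 lower. These 54 of 64 lay near the background, since 79.3% of all genes were called (36.2% higher and 43.2% lower). The AP-1 genes Fosb (4.05 ± 0.27) and Fos (3.97 ± 0.09) and Rel (2.49 ± 0.06) led the Il2 regulators, of which 13 were higher and 7 lower. Of the other 4 SOCS genes 3 were higher, Socs4 (0.85 ± 0.06), Socs7 (0.81 ± 0.10) and Socs6 (0.79 ± 0.09), unlike Socs2 and Socs3. Il7r was lower by 14.1-fold. Between labelled genotypes 6 of 66 pathway genes were called, all higher in the libraries labelled knockout, where 1.21% of all genes were called (0.809% higher), among them Il4 (1.90 ± 0.13), Ikzf2 (0.87 ± 0.09) and Ikzf4 (0.65 ± 0.09). Ikzf2 lost its call without sex in the model (adjusted p = 0.0749), and Ikzf4 in DESeq2 (adjusted p = 0.195) and in cells without a Foxp3 UMI (0.43, adjusted p = 0.100), among others. Between the sexes 4 of 66 were called, where 1.31% of all genes were (0.109% higher and 1.2% lower in males): Stat5a (-0.54 ± 0.11), Jun (-0.53 ± 0.09) and Cdk6 (-0.39 ± 0.08) were lower in males, and Il7r (0.57 ± 0.11) was higher. None of these 4 passed in DESeq2 (adjusted p from 0.108 to 1.00) or without the male library labelled wild type (adjusted p of 1.00 for each).

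Across cells, the genes most like each member were sought among 6804 genes found in at least 5% of the cells of every library, by Pearson's r of log-scaled counts averaged over the 4 libraries. For Il2ra they were Nfkb1 (mean r = 0.543), Eif2s2 (0.503) and Ncl (0.502). For Cish they were the early response genes Gadd45b (0.439), Nr4a3 (0.404) and Cd69 (0.398). For Socs1 they were Gbp7 (0.433), Gbp4 (0.406) and Parp14 (0.388), all known to be induced by interferons. For Il2rb they were Ikzf2 (0.468), Hopx (0.344) and Rora (0.308), and for Socs2 they were Ikzf2 (0.411), Il2rb (0.309) and Vim (0.268). For Socs3 they were Fyb (0.320), Arl4c (0.315) and Samhd1 (0.312). The likeness was weak for Il2 (Eea1, 0.246, Tnfsf11, 0.199, and Spry1, 0.199) and for Il2rg (Nfkbid, 0.237, Egr1, 0.230, and Lcp2, 0.229). Among the 8 genes themselves the highest mean r were those of Cish with Il2ra (0.368), Il2rb with Socs2 (0.309) and Il2ra with Il2rb (0.224), and Il2 reached 0.127 with Il2ra. Cells of a library share its depth and free RNA, and after thinning to 2000 UMIs all of these were lower, with Cish and Il2ra at 0.182. The order changed as well. For Il2, Eea1 stayed at rank 1, while Tnfsf11 fell to rank 8 and Spry1 to 24. For Socs1, Gbp7 stayed at rank 1, and Gbp4 and Parp14 came to rank 5 and 7. For Cish and Il2rg the same 3 genes kept their order, and for the other members the named genes lay within rank 5.

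The genes lie apart in the genome (GENCODE M21, GRCm38): Il2 at chr3:37120523-37125959, Il2ra at chr2:11642807-11693193, Il2rb at chr15:78479256-78495271, Il2rg at chrX:101264378-101268255, Cish at chr9:107296026-107302784, Socs1 at chr16:10782240-10785536, Socs2 at chr10:95385362-95417180 and Socs3 at chr11:117966079-117970047. Il2 overlaps Adad1, and Cish overlaps Gm17040 and Gm17041, on the opposite strand. Il2ra and Il2rg overlap Gm37881 and Gm20489 on the same strand. The use of strand in counting is not given in the sources used here, so reads of such pairs may not be told apart.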

How the data were processed

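Gene-by-barcode counts of UMIs were deposited for 4 libraries, unfiltered, as raw whole numbers that the authors had not normalised. The submitters' processing notes name Cell Ranger 6.0.2 and mm10, while the file headers give software of Cell Ranger version 4. The annotation and the use of strand are not given in the sources used here. Libraries held 28841161 to 55850754 UMIs. The filters on cells removed 12 to 99 cells of a library for mitochondrial UMIs and 0 to 2 for few genes. Doublets were not removed, and an alternative leaves out the cells with the most UMIs, 0.8% of them per 1000 cells of a library.

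UMIs were summed per library, or per library and class of cells. They were tested with edgeR 4.0.16 (filterByExpr, TMM, quasi-likelihood, default prior count) in R 4.3.3. Genes were called at a Benjamini-Hochberg adjusted p under 0.05 over all genes tested. A prior count of 2 was used only for the log2 of CPM compared between genotypes within a sex. Genotype and sex stood in 1 model, and class comparisons had the library as block, since each library gave both classes. Shares were tested over libraries by exact permutation. Python 3.11.15, numpy 2.4.6, scipy 1.17.1 and pandas 2.3.3 made the rest. Cells were thinned by drawing 2000 of their UMIs at random. The CD4 T gate took cells with a Cd3d, Cd3e or Cd3g UMI and no Cd8a or Cd8b1 UMI, outside gates for red cells, B cells and NK cells.

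The 8 genes, the pathway lists and the markers were chosen with earlier results of these data known. Named besides the 8 genes were, per comparison and pathway group, called genes among the 3 with the largest log2 fold change, and the 3 genes most like each member. A few (Stat5a, Stat3, Il4ra and Il21 where outside that rule) were named after their values were seen, and 1 gene that the rule names is not reported here. Alternatives were DESeq2 1.42.0, no filter on low counts, other gates, cuts and depths, no block, and each library left out. With a library left out, fits between genotypes had no sex in the model, and fits between sexes had no genotype. The highest band of the response score, with Il2ra-high drawn within it or by the cut of the library, cells without a Foxp3, Ikzf2 or Gpr83 UMI, likeness after thinning, and the tests of genotype within a class comparison were added after seeing the data. The tests were tested on simulated data: of 197 genes changed by a log2 fold change of 0.5 between genotypes, 44.2% were recovered (7.45% of calls false), and of those changed by 1, 83.8% (10.3% false). For producing cells the shares were 51.0% (10.6% false) and 80.8% (5.88% false). That simulation changed 198 of 10716 genes at a log2 fold change of 0.5, while 4737 of 10842 were called in the data. Its shares may therefore not hold for a comparison in which so many genes differ. Promoter sequences are RefSeq's (GRCm38).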

Additional observations from a re-analysis of the deposited data

Results flagged for a closer look

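For Cish, Socs1, Socs3, Il2ra and Il2rg, the differences between the labelled genotypes had opposite signs in the sexes. With 1 library of each genotype and sex, none of these differences between the sexes was tested. The share of all genes with opposite signs was not counted, so the signs are a description only. As log2 of CPM, labelled knockout minus labelled wild type, Cish differed by -0.0970 in females and 0.60 in males. Socs1 differed by -0.0614 and 0.55, and Socs3 by -0.0707 and 0.39. These 3 inhibitors had their lowest level in the male library labelled wild type. Il2ra (-0.0515 and 0.00809) and Il2rg (0.00729 and -0.21) differed by less. Il2, Il2rb and Socs2 had the same sign in both sexes.

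For 2 genes the difference between Foxp3 cells and other cells differed between the labelled genotypes, by a test of that difference in edgeR (quasi-likelihood, 4 libraries, Benjamini-Hochberg over 11372 genes, of which 38 passed). Labelled knockout minus labelled wild type, the log2 differences changed by -1.56 ± 0.33 for Socs2 (SE, adjusted p = 0.0255) and -0.51 ± 0.10 for Socs1 (adjusted p = 0.0222), that is, both were smaller in the libraries labelled knockout. In cells without a Foxp3 UMI, Socs2 stood at 5.74 and 3.83 CPM in the libraries labelled knockout and 1.34 and 1.47 in those labelled wild type. These levels rest on 187 and 173 UMIs against 21 and 66, and in each library 5 cells held 30.5% to 52.4% of them. In cells with no UMI of Foxp3, Ikzf2 or Gpr83, 62 and 46 against 10 and 21 were left. The part of depth and of regulatory cells without a Foxp3 UMI was not tested. For Socs1 the ratio of the classes was lower in both libraries labelled knockout than in both labelled wild type, and in Foxp3 cells the female library labelled wild type stood apart at 481 CPM.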

How the results depend on the processing

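Differences in shares of cells, as means over libraries, kept their direction under every alternative run, although the share of producing cells in Il2ra-high cells had both signs over libraries in the highest band, and no exact test over 4 libraries could pass 0.05. Counts of called genes moved more. Between genotypes or sexes, the fits with 1 library left out also dropped the other factor from the model. Between genotypes 155 genes were called, against 47 with DESeq2, 20 without a filter on low counts, 7 without the replicate block by sex, 266 in the CD4 T gate, 349 without the cells of the most UMIs, 48 in cells without Foxp3, Ikzf2 or Gpr83, and 43 to 117 with 1 library left out. Between sexes 168 were called, against 33, 12, 6 (no replicate block by genotype), 245 (CD4 T gate), 266, 86 and 12 to 78. Thinning left 2826 calls for producing cells, 2333 for Foxp3 cells and 611 for producing against Il2ra-high cells. The highest band by score, with fewer cells, left 1479, 537 and 940, and 465 for Il2ra-high cells, or, with the Il2ra cut of the library, 914 for these and 874 for producing against Il2ra-high cells. DESeq2 called 1127 in producing against Il2ra-high cells. For Foxp3 cells, leaving out 1 library gave 2606 to 3753, the lowest without the male library labelled knockout. Without the filter the median of all genes moved to -0.34 (producing), -0.23 (Il2ra-high), -0.20 (Foxp3) and -0.31 (bands).

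Over the 8 genes, 624 values kept direction and side of the threshold, 31 lost and 17 gained a call, and 28 turned direction. With 1 library left out, the values that turned ran, between genotypes, from -0.11 to 0.0619 (Il2ra; above 0 without the female wild type or the male knockout) and, below 0 without the male wild type, from -0.13 to 0.63 (Cish), -0.14 to 0.63 (Socs1) and -0.22 to 0.53 (Socs3). Between sexes they ran from -0.22 to 0.0650 (Il2; above 0 without the female wild type), -0.0550 to 0.15 (Il2rg; below 0 without the male wild type) and -0.84 to 0.75 (Socs2; above 0 without the female knockout or the male wild type), and in producing cells from -0.0871 to 0.0985 (Cish; below 0 without either wild type). From 3000 UMIs the genotype values of Il2ra (0.00215) and Socs3 (-0.0115) and the producing-cell value of Cish (-0.00330) turned. Thinning turned Il2 (0.0121) and Socs2 (0.25) in sex, Il2rb in producing cells (-0.28) and Socs1 in Il2ra-high cells (-0.0609), without a call. It also turned Il7r in producing against Il2ra-high cells, which passed in edgeR in both directions. Il7r was at -0.77 (adjusted p = 0.00147) over all kept cells and at 0.95 (adjusted p = 0.00293) after thinning. Other turns in sex were Il2 in cells without Foxp3, Ikzf2 or Gpr83 (0.00689) and Socs2 without the cells of the most UMIs (0.11). In producing cells, Il2rb (-0.0737) and Cish (-0.0992) turned at a cut of 1 Il2 UMI, and Cish without the filter (-0.0370), without the library as replicate block (-0.0188) and in the highest band (-0.44). Pik3r1 turned in the highest band (0.00539, and 0.17 against Il2ra-high cells, 0.0523 with the Il2ra cut of the library), as did Socs1 (-0.12), Socs7 (-0.0741) and Junb (-0.0359) in Il2ra-high cells by that cut, all 4 without passing, and Il2rg in Foxp3 cells without the filter (-0.00544) and in the CD4 T gate (-0.00221). The cause was not tested in any of these. A library left out leaves 1 library alone in its group, assumed to vary like the others. Such fits between genotypes or sexes also had the other factor out of the model. Socs2 and Socs3 rest on 4 and 13 UMIs in producing cells.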
